A study of Mus musculus with 8 samples.

Results

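The genes described are 9 components of the muscle motor and its switch: the myosin light chain genes Myl1, Myl2, Myl3, Myl4, Myl6, Myl6b and Mylpf, and the light chain kinase genes Mylk and Mylk2. They were read through every probe set (a group of short array probes for 1 transcript) that the platform annotation assigns to exactly 1 of these symbols. All 9 genes had such a probe set, 14 in total, among 12393 genes on the array with a probe set of 1 symbol. The cells were C2C12 myotubes, which form when this mouse myoblast line is switched to low serum and fuses. All cultures differentiated for 4 days in medium with 2% horse serum that was changed every 48 h. The 4 starved samples (E to H) then received no fresh medium for another 4 days, whereas the 4 control samples (A to D) went on being re-fed every 48 h, and both were harvested on day 8. C2C12 is a single line grown without nerve or load, and the labels place the experiment under muscle atrophy. Separate cultures are not stated for the samples of a group, so every p-value here rests on a sample-to-sample spread that could be technical.

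Each myosin head carries an essential light chain and a regulatory light chain wrapped around its lever arm, and each muscle type uses its own set of them. Fast fibres use Myl1 and Mylpf, slow fibres and the ventricle use Myl3 and Myl2, embryonic muscle and the atrium use Myl4, and smooth muscle and non-muscle cells use Myl6. Calcium-calmodulin-dependent kinases phosphorylate the regulatory chain: Mylk2 is the skeletal muscle enzyme and Mylk the smooth muscle and non-muscle enzyme. In skeletal muscle this phosphorylation tunes force, and in smooth muscle it switches contraction on.

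The deposited intensities were not scaled to a common brightness. The mean intensity of an array, taken after dropping 2% of values at each end, was 243, 277, 296 and 366 in starved E, F, G and H, against 455, 317, 342 and 423 in control A, B, C and D. Signals below are therefore log2 intensities after quantile normalization, which gives all arrays the same distribution of values, and a fold change is starved minus control on that log2 scale. Probe sets of different genes differ in brightness for reasons other than transcript number, so their levels are not compared as amounts. All 10 myotube marker genes were bright enough to test, and 1 of them (Des, desmin) was called lower. Their median log2 fold change was -0.11, and their summed deposited intensity, unscaled and so carrying each array's brightness, was 54242 to 68867 in starved and 64635 to 83245 in control arrays. Control B stood apart in the 3′ to 5′ signal of the Gapdh control probe sets, with a log2 ratio of 1.40 where the starved arrays had -0.23 to -0.04 and the other control arrays -0.22 to -0.12. The same ratio for the actin control probe sets was 0.32 in control B. There the starved arrays had 0.02 to 0.27 and the other control arrays 0.08 to 0.29. Among the markers of other cell types, 4 of 5 tested smooth muscle genes were lower in starved cultures, 1 of 5 myoblast genes was lower, and of 6 fibroblast genes 1 was higher and 2 were lower. Fewer cells of a type and less RNA per cell cannot be told apart in such bulk samples.

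The stretch of 250 bases before the transcription start is shown for the members on which the results turn: Mylpf and Myl1, among the brightest probe sets on the arrays, Myl4, the member that was called, and Myl6, whose shared probe sets were called. Sequences are RefSeq windows of build GRCm38.p6, written 5′ to 3′ on the gene's strand in lower case, with capitals marking CAGCTG, the E-box form favoured by myogenic factors, or a CArG box, the site type of serum response factor.
Mylpf promoter, chr7:127211358-127211607, plus strand: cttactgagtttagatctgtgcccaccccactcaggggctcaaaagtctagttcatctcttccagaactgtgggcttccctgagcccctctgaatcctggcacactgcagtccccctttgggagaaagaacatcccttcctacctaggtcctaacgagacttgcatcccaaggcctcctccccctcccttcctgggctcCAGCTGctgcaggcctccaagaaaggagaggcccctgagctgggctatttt
Myl1 promoter, chr1:66945057-66945306, minus strand: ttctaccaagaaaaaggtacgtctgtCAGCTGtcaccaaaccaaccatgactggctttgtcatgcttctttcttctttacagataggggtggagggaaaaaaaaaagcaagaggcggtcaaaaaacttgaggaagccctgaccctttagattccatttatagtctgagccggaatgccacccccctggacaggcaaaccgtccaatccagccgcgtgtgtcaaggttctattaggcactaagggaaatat
Myl4 promoter, chr11:104550413-104550662, plus strand: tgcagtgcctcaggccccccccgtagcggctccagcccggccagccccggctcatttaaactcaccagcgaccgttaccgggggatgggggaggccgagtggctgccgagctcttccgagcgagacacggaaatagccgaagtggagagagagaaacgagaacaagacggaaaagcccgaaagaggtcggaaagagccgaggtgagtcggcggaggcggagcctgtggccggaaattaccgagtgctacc
Myl6 promoter, second window, chr10:128493010-128493259, minus strand: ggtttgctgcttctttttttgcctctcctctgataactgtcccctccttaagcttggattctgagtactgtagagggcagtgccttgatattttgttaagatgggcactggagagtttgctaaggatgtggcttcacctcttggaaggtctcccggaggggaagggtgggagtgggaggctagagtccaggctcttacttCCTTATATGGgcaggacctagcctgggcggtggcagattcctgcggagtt

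These 4 starts lie inside the gene, 2760 bases from the annotated boundary for Mylpf, 2876 for Myl1, 4646 for Myl4 and 877 for Myl6, so each gene also has an annotated boundary further upstream. RefSeq windows were matched for 8 of the 9 genes, 10 windows in all, and Mylk2 had none. Both strands were searched for CAGCTG, for the general E-box CANNTG (which includes every CAGCTG), for the CArG box and for the MEF2 box. CAGCTG was found in 3 of the 10 windows, at bases -51 to -46 of Mylpf, -224 to -219 of Myl1 and -130 to -125 of a Myl2 window, where -1 is the base before the start. It occurs in 13% of all 32851 windows. CANNTG was found in 7 of the 10, against 66.2% of all windows. The CArG box was found in 2, at -85 to -76 of Myl3 and -50 to -41 of the Myl6 window shown, and occurs in 1.47% of all windows. The other Myl6 window, whose start is the annotated gene boundary, held no CArG box. The MEF2 box was found in 0 of the 10 and occurs in 1.69% of all windows. A match describes these letters only, and the array gives no measure of binding.

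The fast regulatory light chain Mylpf was at the top of the arrays in both conditions. Its probe set 1448371_at (gene at chr7:127208848-127214288) read 13.59, 13.62, 13.76 and 13.51 in starved E, F, G and H, and 13.67, 13.72, 13.59 and 13.85 in control A, B, C and D. It ranked between 3 and 11 among all probe sets in starved arrays and between 1 and 8 in control arrays. Because quantile normalization gives equal ranks equal values, a probe set that stays among the top ranks can move little on this scale. Across the alternatives its log2 fold change ran from -0.32 in unscaled values to 0.04 with 75th percentile centring, and it was called in 0 of them. The groups overlap, and the log2 fold change of -0.09 ± 0.07 (SE, n = 4 per group) did not pass the test (limma, adjusted p = 0.489), with a 95% interval of -0.23 to 0.06.

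The slow and ventricular regulatory chain Myl2 was dimmer. Its probe set 1448394_at (gene at chr5:122092724-122113473) read 11.72, 11.55, 11.75 and 11.40 in starved E, F, G and H, and 11.79, 12.02, 11.85 and 11.59 in control A, B, C and D. The starved arrays lie mostly below the controls, but control D sits among them. The log2 fold change was -0.21 ± 0.10 (SE, n = 4 per group; limma, adjusted p = 0.257), with a 95% interval of -0.44 to 0.02. With the deposited values left unscaled the value was -0.56 and passed (limma, adjusted p = 0.0161), in a scaling where the median of all tested probe sets was itself at -0.33.

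Among the essential chains, the fast chain Myl1 read nearly the same in both conditions and the embryonic and atrial chain Myl4 read lower in starved myotubes. The Myl1 probe set 1452651_a_at (gene at chr1:66924295-66947932) read 13.28, 13.25, 13.53 and 13.39 in starved E, F, G and H, and 13.39, 13.14, 13.51 and 13.36 in control A, B, C and D. The groups overlap across their whole range. The log2 fold change was 0.01 ± 0.08 (SE, n = 4 per group; limma, adjusted p = 0.957), with a 95% interval of -0.17 to 0.19 that holds for this scaling only. With 75th percentile centring the value was 0.16, with a 95% interval of -0.11 to 0.43. In unscaled values, where the median of all tested probe sets was -0.33, it was -0.20, with an interval of -0.50 to 0.10. Neither was called.

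Myl4 was the 1 member that passed the test. Its bright probe set 1422580_at (gene at chr11:104546017-104587215) read 13.18, 13.21, 13.28 and 13.11 in starved E, F, G and H, and 13.47, 13.44, 13.47 and 13.45 in control A, B, C and D. Every starved array lies below every control array. The log2 fold change was -0.27 ± 0.05 (SE, n = 4 per group), a ratio of 0.831 between starved and control, with a 95% interval of -0.37 to -0.16 (limma, adjusted p = 0.00369). By rank the probe set stood between 30 and 51 in starved arrays and between 13 and 15 in control arrays, and because quantile normalization gives equal ranks equal values, the narrow control range partly restates those ranks. The call was lost when arrays were centred on their median (-0.16, adjusted p = 0.535) or on their 75th percentile (-0.12, adjusted p = 0.608). It was also lost in limma without an intensity trend (adjusted p = 0.0862) and when its probe sets were averaged (-0.21, adjusted p = 0.436). Leaving out any 1 array kept it, with values of -0.30 to -0.25. The other Myl4 probe set, 1457126_at, was dim at 6.88 in starved and 7.03 in control arrays on average, with a log2 fold change of -0.15 ± 0.31 (SE, n = 4 per group; limma, adjusted p = 0.827).

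**Figure D1:**
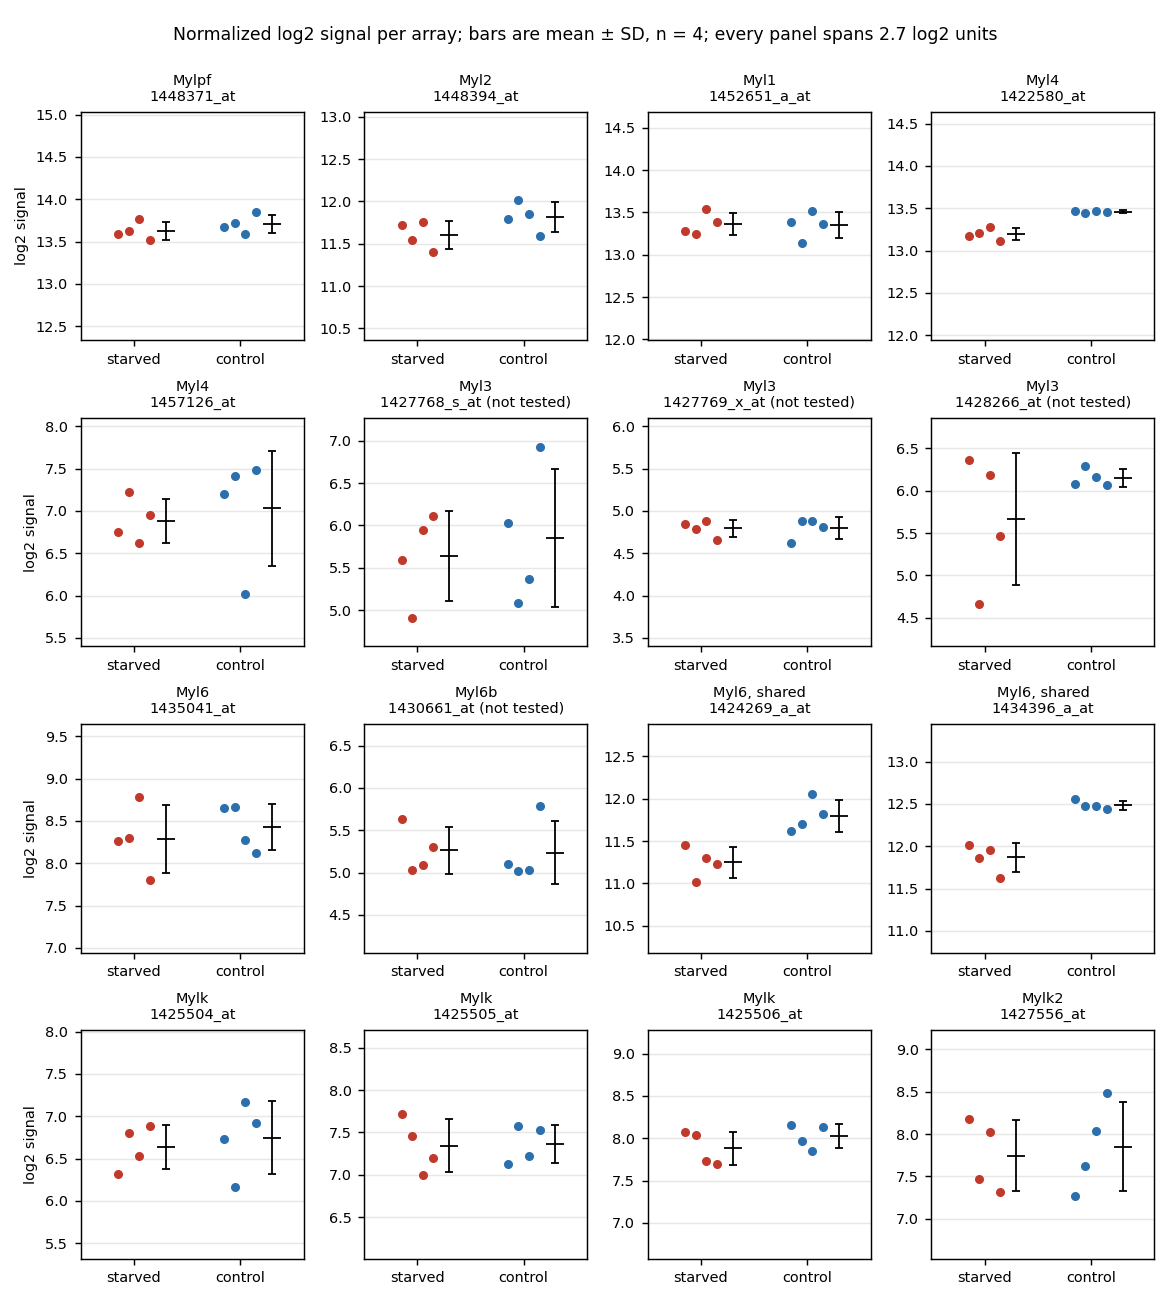
Log2 signal after quantile normalization (vertical axis) of member probe sets on each of the 8 arrays, starved left and control right, with points for arrays and bars for the mean ± SD of each group. The starved points of Myl4 lie between 13.11 and 13.28, all below the control points, which lie between 13.44 and 13.47, while the groups overlap for Myl1, Myl2 and Mylpf.

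Myl3, the slow and ventricular essential chain, stayed below the brightness limit in all 3 of its probe sets. A probe set was tested when its mean log2 signal over the 8 arrays exceeded 6.61, and the brightest Myl3 probe set averaged 5.91, whereas the dimmest tested member, a Mylk probe set, averaged 6.69. Myl3 probe set 1428266_at read 6.36, 4.66, 6.19 and 5.46 in starved E, F, G and H, and 6.08, 6.29, 6.16 and 6.07 in control A, B, C and D. The starved arrays straddle the controls. The untested log2 differences of the 3 probe sets were -0.48, -0.21 and -0.01, at levels where the offset added before the logarithm shrinks differences.

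Myl6 encodes the essential chain of smooth muscle and non-muscle myosins, and its probe sets gave different answers. The probe set that the annotation gives to Myl6 alone, 1435041_at (gene at chr10:128490859-128493886), read 8.26, 8.30, 8.78 and 7.81 in starved E, F, G and H, and 8.66, 8.67, 8.27 and 8.12 in control A, B, C and D. The groups overlap, with a log2 fold change of -0.14 ± 0.20 (SE, n = 4 per group; limma, adjusted p = 0.730) and a 95% interval of -0.59 to 0.30. Another 2 probe sets are annotated to Myl6 together with Gm8894 and Gm5526, which RefSeq lists as pseudogenes, and so fall outside the members.

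Both shared probe sets were lower in starved myotubes and were much brighter. Probe set 1434396_a_at read 12.02, 11.87, 11.96 and 11.63 in starved E, F, G and H, and 12.56, 12.47, 12.47 and 12.43 in control A, B, C and D, a log2 fold change of -0.62 ± 0.08 (SE, n = 4 per group; limma, adjusted p = 0.000629). Probe set 1424269_a_at read 11.45, 11.01, 11.29 and 11.23 in starved E, F, G and H, and 11.62, 11.70, 12.05 and 11.81 in control A, B, C and D, a log2 fold change of -0.55 ± 0.11 (SE, n = 4 per group; limma, adjusted p = 0.00888). Neither overlaps between the groups, and both were called lower in each of the 19 alternatives. Which of the 3 genes these probes read was not tested.

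Myl6b, an essential chain of slow muscle and non-muscle cells, lies 270 bases from Myl6 on chromosome 10. Its probe set 1430661_at was below the limit and untested, at 5.63, 5.03, 5.08 and 5.30 in starved E, F, G and H, and 5.10, 5.02, 5.03 and 5.79 in control A, B, C and D. The groups overlap, and the difference of means was 0.03.

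The kinases were dim and scattered, and none of their probe sets passed. Mylk2, the skeletal muscle kinase (chr2:152911281-152923065), read 8.18, 7.47, 8.02 and 7.31 through 1427556_at in starved E, F, G and H, and 7.27, 7.62, 8.03 and 8.48 in control A, B, C and D. Its log2 fold change was -0.11 ± 0.27 (SE, n = 4 per group; limma, adjusted p = 0.856), and the 95% interval of -0.70 to 0.49 leaves room for changes in either direction. Mylk, the smooth muscle and non-muscle kinase (chr16:34745199-35002436), has 3 probe sets. The brightest, 1425506_at, read 8.07, 8.03, 7.73 and 7.70 in starved E, F, G and H, and 8.16, 7.97, 7.85 and 8.13 in control A, B, C and D. The groups overlap, with a log2 fold change of -0.14 ± 0.14 (SE, n = 4 per group; limma, adjusted p = 0.576), and the other Mylk probe sets had values of -0.11 and -0.02 and were not called.

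Of the 14 member probe sets 10 were tested, representing 7 genes, and limma called 0 higher and 1 lower in starved myotubes. At an unadjusted p under 0.05 the counts were also 0 higher and 1 lower. Over all 13575 probe sets tested, 10.6% were called in either direction and 6.23% were called lower, so 1 of 10 is near the background share. The groups did not overlap for 1 of the 10, against 17.4% of all tested probe sets. The starved mean was below the control mean in 9 of the 10, with a median log2 fold change of -0.13, against 0.02 for all tested probe sets, and single values ran from -0.27 to 0.01. The share of all tested probe sets with a lower starved mean was not counted. The myotube markers had a median of -0.11, and the 55 tested related genes described below one of -0.06. The members' median was -0.05 without control D and -0.07 without starved H. In unscaled values the median was -0.46 for members and -0.33 for all, and 2 members, Myl2 and Myl4, were called lower. With median centring the members were at -0.14 and all probe sets at -0.01, and 0 members were called. Over the whole array 591 probe sets were called higher and 846 lower, where unscaled values gave 79 and 1533 and median centring 364 and 820.

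**Figure D2:**
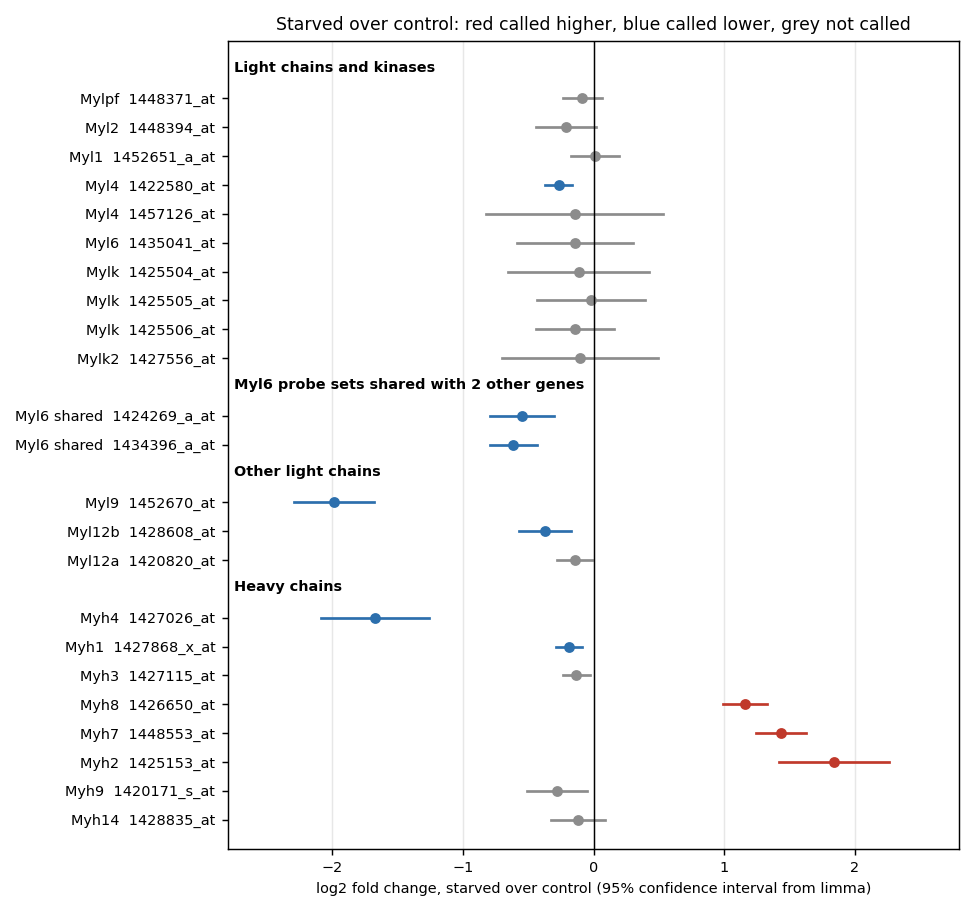
Log2 fold change, starved minus control, of the tested member probe sets, the Myl6 probe sets shared with other genes, the other light chains and the heavy chains (horizontal axis), with points for the limma estimate, lines for its 95% interval, and red for called higher, blue for called lower and grey for not called. The Myl4 interval runs from -0.37 to -0.16 and both shared Myl6 probe sets lie further left, at -0.62 and -0.55, while the Myl1, Mylpf and Mylk2 intervals include 0. Myl9 at -1.99 and the heavy chains Myh4 at -1.67 and Myh2 at 1.84 lie farther from 0 than any member.

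**Figure D3:**
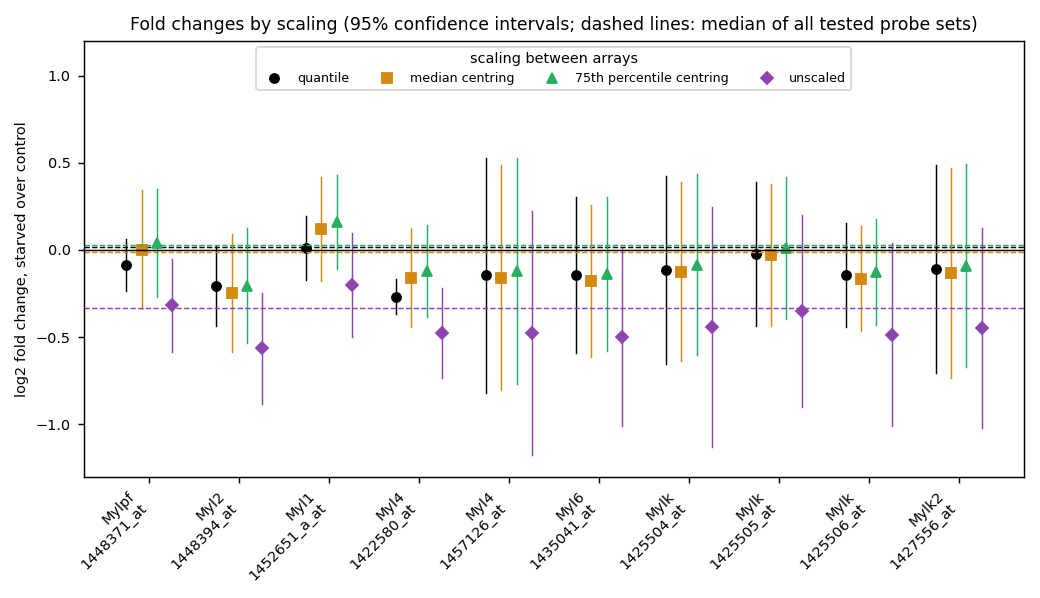
Log2 fold change, starved minus control, of the tested member probe sets (horizontal axis) under each scaling of the arrays, with 95% confidence intervals as lines and dashed lines at the median of all tested probe sets. Myl4 moves between -0.48 in unscaled values and -0.12 with 75th percentile centring, and the median of all tested probe sets moves with the scaling, to -0.33 when values are left unscaled.

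Differences between isoforms within an array do not depend on a linear scaling of arrays apart from the offset. Those given here were taken after quantile normalization, which is not a linear scaling and can change them. For 5 pairs of light chain or kinase genes the within-array log2 difference was compared between the groups with a two-sided exact permutation test over 70 labellings, whose smallest p is 0.0286, adjusted over the 5 pairs. Myl4 minus Myl1, embryonic against fast essential chain, was -0.10, -0.04, -0.26 and -0.28 in starved E, F, G and H, and 0.08, 0.30, -0.04 and 0.09 in control A, B, C and D. Starved F and control C were both at -0.04, so the groups touch, and the difference of means was -0.28 (exact permutation p = 0.0571, adjusted 0.286). Myl2 minus Mylpf, slow against fast regulatory chain, averaged -2.02 ± 0.11 in starved and -1.90 ± 0.26 in control arrays (SD, n = 4 each), a difference of -0.12 (exact permutation p = 0.457, adjusted 0.762). The other pairs, Myl3 minus Myl1 (-0.49), Myl6b minus Myl6 (0.17) and Mylk2 minus Mylk (0.04), had adjusted exact permutation p of 0.571, 0.943 and 0.943. The Myl3 and Myl6b probe sets in these pairs lay below the brightness limit of 6.61.

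Of the 6 tested striated heavy chains, which carry these light chains, limma called 5, 3 higher and 2 lower. A further pair of differences, chosen after the values were seen and given without a test, sets a slow and a fast heavy chain against the regulatory chain of its fibre type. Myh7 minus Myl2 was 0.72, 0.73, 0.74 and 0.75 in starved E, F, G and H, and -0.92, -1.14, -1.04 and -0.55 in control A, B, C and D, a difference of means of 1.64. Myh4 minus Mylpf was -5.28, -4.63, -4.42 and -4.51 in starved E, F, G and H, and -2.87, -3.23, -2.99 and -3.40 in control A, B, C and D, a difference of means of -1.59. Neither of these differences overlaps between the groups, and they run in opposite directions. The heavy chains Myh7 (1.44) and Myh4 (-1.67) were themselves called without overlap, so this separation was largely set by the choice of pairs. Other fast heavy chains did not all follow Myh4, as Myh2 was at 1.84. Myh1 was lower like Myh4, but only at -0.19 and with a call lost in the other scalings.

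**Figure D4:**
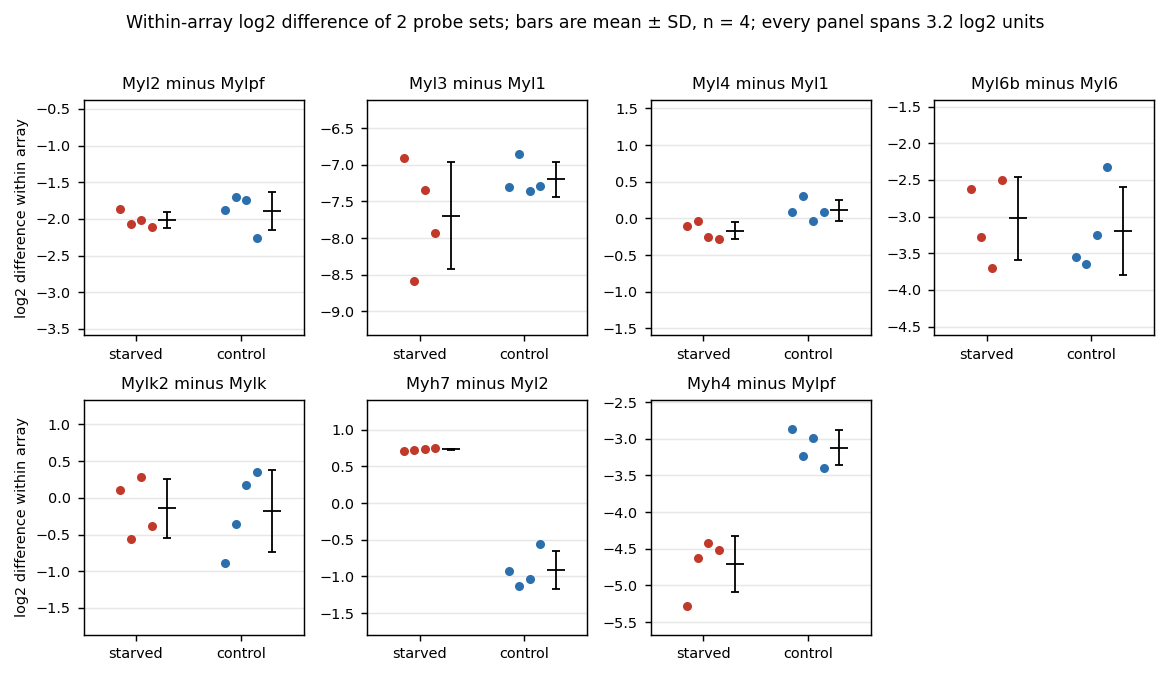
Within-array log2 difference of gene pairs (vertical axis) on each array, starved left and control right, with points for arrays and bars for the mean ± SD of each group. The 5 light chain and kinase pairs overlap between the groups. Myh7 minus Myl2, a pair chosen after the values were seen, lies near 0.73 in starved arrays and between -1.14 and -0.55 in control arrays.

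The rest of the pathway was read from lists of related genes, each gene at its brightest tested probe set, where 11.2% of all 8352 genes tested were called in either direction. Of 55 tested genes in these lists 6 were higher, 11 were lower and 38 were not called, with a median log2 fold change of -0.06. Of the 6 higher genes 4 were called in each of the other scalings, and of the 11 lower genes 4 were (Myl9, Myl12b, Myh4 and Mef2d).

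The other light chains had 3 tested genes, 0 higher and 2 lower in limma (at an unadjusted p under 0.05, 0 higher and 3 lower). Myl9, the regulatory chain of smooth muscle myosin, read 7.97, 8.14, 8.63 and 8.06 in starved E, F, G and H, and 10.11, 10.26, 10.21 and 10.17 in control A, B, C and D. It fell by 1.99 ± 0.14 on the log2 scale (SE, n = 4 per group; limma, adjusted p = 5.47e-06), and its groups do not overlap, whereas those of the sarcomeric regulatory chains Mylpf and Myl2 do. Of the 8 smooth muscle markers, of which Myl9 is 1, 5 were tested and 4 were lower. Among these were Tagln at -2.65, Actg2 at -1.75 and the brightest, Acta2, at -0.30. Smtn was at -0.20 and not called. Cnn1, Lmod1 and Myh11 were too dim to test, with differences of -0.33, 0.08 and 0.28. The summed deposited intensity of all 8 was unscaled, like that of the myotube markers. This sum ran from 7212 to 10091 in starved and from 13233 to 17092 in control arrays. Trimmed means were 243 to 366 in starved and 317 to 455 in control arrays. The part of smooth muscle-type cells in the Myl9 and shared Myl6 results was not tested. Myl12b, a non-muscle regulatory chain, fell by 0.37 ± 0.09 (limma, adjusted p = 0.023), a call lost in 5 of 19 alternatives, and its partner Myl12a was at -0.14 (limma, adjusted p = 0.180).

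The machinery that phosphorylates and dephosphorylates the regulatory chains gave no calls. Among 7 tested other kinases and activators limma called 0 higher and 0 lower (0 and 1 at an unadjusted p under 0.05), with Dapk2, a death-associated kinase, at -0.06. Among 5 tested myosin phosphatase genes limma called 0 (0 also at an unadjusted p under 0.05), with the catalytic subunit Ppp1ca at 0.04 and the inhibitor Ppp1r14b at 0.03. Among 2 tested non-muscle heavy chains limma called 0, with Myh9 at -0.28 (adjusted p = 0.129; lower at an unadjusted p under 0.05) and Myh14 at -0.12 (adjusted p = 0.488).

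Of 6 tested striated heavy chains 3 were higher and 2 lower. Myh7, the slow and cardiac chain, read 12.44, 12.27, 12.49 and 12.14 in starved E, F, G and H, and 10.87, 10.88, 10.81 and 11.03 in control A, B, C and D, and rose by 1.44 ± 0.09 (SE, n = 4 per group; limma, adjusted p = 1.75e-06). Myh2, the fast oxidative chain, rose by 1.84 ± 0.19, and Myh8, the perinatal chain, rose by 1.16 ± 0.08. Myh4, the fastest chain, fell by 1.67 ± 0.19 (SE, n = 4 per group), with 8.31 to 9.34 in starved arrays and 10.46 to 10.80 in control arrays. Myh1 fell by 0.19 ± 0.05, a call that was lost in all 3 other scalings, and its other tested probe set was at 0.14 and not called. Myh3, the embryonic chain, was at -0.13 (limma, adjusted p = 0.109). The heavy chains are encoded by near-identical genes, so probes may read more than 1 of them.

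Slow fibre genes had 2 higher and 2 lower of 8 tested, and fast fibre genes 2 higher and 4 lower of 11. In the slow list the tropomyosin Tpm3 rose by 0.65 ± 0.11 beside Myh7, a call lost in unscaled values, with 1 further Tpm3 probe set called higher and 3 uncalled, and the calcium pump Atp2a2 fell by 0.23 ± 0.05, with 1 further probe set called lower and 2 uncalled (-0.15 and 0.07), whereas the slow troponins Tnnc1 and Tnni1 were at -0.06 and -0.03 and not called. Tnnt1 fell by 0.16 ± 0.04 (limma, adjusted p = 0.0459), a call lost in all 3 other scalings, with a value of 0.02 under 75th percentile centring, and lost in 11 of 19 alternatives. In the fast list the calcium buffer parvalbumin (Pvalb) rose by 1.84 ± 0.17, the calcium store protein Casq1 fell by 0.31 ± 0.07 and alpha-actinin 3 (Actn3) fell by 0.20 ± 0.05, and the fast troponins Tnni2 and Tnnc2 were at -0.14 and -0.10 and not called. The calls of Atp2a2 and Casq1 were lost with median and 75th percentile centring, and that of Actn3 in all 3 other scalings.

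Of the embryonic and cardiac isoforms, the class to which Myl4 belongs, 1 of 4 tested was higher (Myh8) and 1 was lower. Cardiac troponin T, Tnnt2, fell by 0.29 ± 0.07 (limma, adjusted p = 0.0162), close in size to Myl4 and, like it, lost its call with median centring (-0.16, adjusted p = 0.519). Cardiac actin Actc1 was at -0.24 (limma, adjusted p = 0.0515).

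Of 8 tested genes for myosin folding and the thick filament 1 was called. Smyd1, a methyltransferase that helps assemble myosin, rose by 0.48 ± 0.12 (limma, adjusted p = 0.0299), a call lost in 9 of 19 alternatives and not made for its other 2 tested probe sets, and the thick filament proteins Mybph and Myom2 were at -0.06 and -0.02. Of 7 tested regulators of light chain genes 0 were higher and 2 were lower in limma (1 higher and 2 lower at an unadjusted p under 0.05). Mef2d fell by 0.56 ± 0.10 and Mef2c by 0.33 ± 0.05 (limma, adjusted p = 0.00553 and 0.00182), and all 5 tested Mef2c probe sets were called lower, although the call at the brightest of them was lost with median centring (adjusted p = 0.0538). The other 4 Mef2c probe sets had larger changes, from -1.05 to -0.64. The other tested Mef2d probe set was at -0.01 and not called, and the Mef2d call was lost when its probe sets were averaged (-0.28, adjusted p = 0.117). The myogenic factors Myod1 and Myog were at 0.36 and 0.29 (limma, adjusted p = 0.0600 and 0.238), without overlap between the groups, and Myog was at 0.12 without control B, whose value stands apart from the other controls.

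The genes whose signals over the 8 arrays were most like that of Myl4, by Pearson correlation among 8345 genes, were all lower in starved myotubes. They were Bgn, the matrix proteoglycan biglycan (r = 0.990), Mmp14, a membrane-bound matrix protease (r = 0.985), and Nrep (r = 0.985). Their log2 fold changes were -0.71, -1.14 and -1.16, larger than that of Myl4. The Mmp14 call was lost in 1 of 19 alternatives (limma, adjusted p = 0.215). The 8 arrays form 2 groups, a separation that all of these genes share.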

How the data were processed

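RNA of 4 starved and 4 control C2C12 myotube samples was hybridised to Affymetrix mouse arrays, 1 array per sample, and grouped by the labels. The authors deposited 1 linear intensity per probe set and array, while the software behind these intensities is not named in the labels or headers. Without detection calls no background is set, and precision is limited by having 4 arrays per group. To every value (negative ones set to 0) an offset of 10.9 was added, equal to the 10th percentile, before taking log2, and arrays were quantile normalized because trimmed means differed by more than 5% from their median. After removal of 64 control probe sets, those of mean log2 signal over 6.61 (the 40th percentile) were tested, 13575 of 22626, with limma 3.58.1 in R 4.3.3 (lmFit, trended eBayes). Adjustment was by Benjamini-Hochberg over every tested probe set, at a threshold of 0.05. Fold changes on this scale understate those of dim probe sets.

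Symbols come from the 2016 platform annotation. Named are all members, of each related list up to 3 called genes per direction with the largest change and up to 2 uncalled genes with the highest mean, the 3 genes most correlated with a called member, and the genes of each pair; 1 gene so chosen is not reported here. Exceptions are the shared Myl6 probe sets, the marker gene Des, the smooth muscle markers, the 2 further pairs, and genes listed by count. Members and lists were chosen with earlier results of these data known. Alternatives were other scalings, offsets, filters, variance models, array weights, averaging of probe sets per gene, and leaving out each array. Plots used Python 3.11.15 and matplotlib 3.10.9.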

Additional observations from a re-analysis of the deposited data

Results flagged for a closer look

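Of 126 groups of 4 arrays checked, 6 held 1 array far from the others by Dixon's criterion, where chance gives about 1 in 20. Myl6b was at 5.79 in control D and at 5.02 to 5.10 in the other control arrays, at a level too dim to test. Myl3 minus Myl1 was at -6.85 in control B and at -7.36 to -7.29 in the other control arrays. Myog was at 11.90 in control B and at 12.56 to 12.66 in the other control arrays, and its log2 fold change of 0.29 became 0.12 without control B. The log2 ratio of the 3′ to the 5′ Gapdh control probe sets was 1.40 in control B and -0.22 to -0.12 in the other control arrays. For the actin control probe sets it was 0.32 in control B and 0.08 to 0.29 in the other control arrays. Tnnt1 was at 13.00 in starved G and at 12.91 to 12.92 in the other starved arrays. Myh1 was at 13.1382 in starved F, where the other starved arrays shared 1 quantile value of 13.1437, a gap far smaller than the differences between groups.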

How the results depend on the processing

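No paired analysis was possible because the replicate letters differ between the groups. The count of members called lower, 1, became 2 in unscaled values and 0 with median centring, with 75th percentile centring, without an intensity trend and when the probe sets of a gene were averaged, and was 1 without each array in turn. The count of members called higher was 0 in all 19 alternatives. Of the related genes 11 were called lower, against 4 with median centring, 5 with 75th percentile centring, 6 without a brightness filter and 4 without an intensity trend. Leaving out 1 array gave 6 to 12 lower, with 6 without starved F, 6 without control A and 7 without control D. Related genes called higher, 6, ran from 4 to 8. Over all probe sets, unscaled values gave 79 higher and 1533 lower and median centring 364 higher, against 591 and 846, and leaving out 1 array gave 385 (without starved F) to 624 higher and 638 to 820 lower. Tnnt1 turned to 0.024 with 75th percentile centring, uncalled there. For 49 single genes or probe sets, 842 of 925 alternatives stayed on the same side of the threshold (in 42 the sign changed with neither value called), 66 lost and 16 gained a call, 1 reversed, and the cause was not tested. No pair passed in any of its 12 alternatives, where the lowest exact permutation p adjusted over the pairs was 0.143. That is the adjusted value of a pair that alone reaches the smallest possible p, so a lone pair could not pass. Dim probe sets (Myl3, Myl6b) set the limit of what could be tested.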
